A study of Mus musculus with 191 samples.

Results

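Tetrafluoroethylene and Tetrafluororethane (the spelling of the labels) are small fluorinated gases that were inhaled by mice, and their lung transcriptomes are described here against the air controls they share. The arrays were chosen by their labels and no measured value entered the choice. They are 8 arrays, 4 for each gas, beside 4 arrays of their air controls and 179 other arrays of the series, and stand for 2 of its 26 chemicals. The mice were B6C3F1 females, of a hybrid strain that is common in toxicology, and exposure ran for 13 weeks from 5 weeks of age before the right lung lobe was profiled on Affymetrix mouse arrays. Each array carries its own animal number in the labels. The p-values of genes rest on a spread between animals that is pooled over all groups of the series, not on that of these 12 animals alone. Tetrafluoroethylene was given at 1250 ppm (TFEL) and tetrafluororethane at 50000 ppm (TFEA), both in air for 6 h a day on 5 days of each week. The 4 controls (ACO1) breathed air alone on the same schedule and lie in the same array batch, and all 12 animals were adult females 18 weeks old at harvest. The hours between the last exposure and harvest, and the isomer of tetrafluororethane, are not given in the sources used here.

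Tetrafluoroethylene is an alkene whose unsaturated carbons carry only fluorine, and it is the monomer of the polymer PTFE. Tetrafluoroethane is its saturated counterpart, which carries hydrogen as well as fluorine. Fluorinated alkenes are known to be conjugated to glutathione by glutathione transferases, and the cysteine conjugates formed from them are cleaved by beta-lyases, mainly in the kidney. The lung meets an inhaled gas across a thin wall of alveolar type 1 and type 2 cells lying on a dense capillary bed, and its club cells hold much of its cytochrome P450. The genes described below include endothelial genes, nuclear regulators and genes of the protein synthesis and respiratory machinery. This make-up partly reflects the gene lists that were chosen.

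The tissue label was borne out by lung markers, which were among the brightest genes on all 3 groups of arrays. Sftpc, the surfactant protein of type 2 cells, had a mean of 6.85 ± 0.08 (SD, n = 4) on the log2 scale in the controls, 6.67 ± 0.14 with TFEL and 6.81 ± 0.12 with TFEA. Scgb1a1, the secretory protein of club cells, had means of 7.01 ± 0.05, 6.80 ± 0.12 and 6.99 ± 0.16 (SD, n = 4 each). Ager, a marker of type 1 cells, stood at 6.61, 6.41 and 6.57. In bulk lung, fewer cells of a type and less RNA per cell cannot be told apart.

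The RNA itself differed between the groups. The RNA integrity number, a score of how intact the RNA is, was 9.3, 8.8 and 9.1 in 3 TFEL samples (the label of replicate 3 gives none) and 8.4, 7.6, 7.9 and 7.8 in the controls, with no overlap. The TFEA samples scored 8.9, 9.4, 8.3 and 7.8, so replicates 1 and 2 lay above all controls and replicates 3 and 4 lay among them. A second measure comes from control probe sets at either end of the beta-actin messenger, where a larger 3' minus 5' difference goes with shorter transcripts. It was 0.22, 0.19, 0.26 and 0.20 (log2) on the TFEL arrays, 0.28, 0.33, 0.44 and 0.75 on the TFEA arrays, and 0.50, 0.60, 0.49 and 0.81 on the control arrays. TFEL was again below every control, and TFEA replicate 4 was again among them. TFEL differed from the controls in both measures at exact two-sided permutation p = 0.0286, the smallest that 3 or 4 against 4 arrays can give (0.0715 after adjustment over 10 such tests), and TFEA did not (exact p = 0.2 and 0.257). Over the 13 other control sets of the series the mean of the beta-actin difference ran from 0.52 to 0.72, so the TFEL arrays also lay below all of these means. The RNA integrity number of other control arrays ran from 6.1 to 9.5, a range that holds all 3 TFEL values. These measures move with the gene groups below and their part was not tested, beyond the values given with each measure as a covariate.

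**Figure D1:**
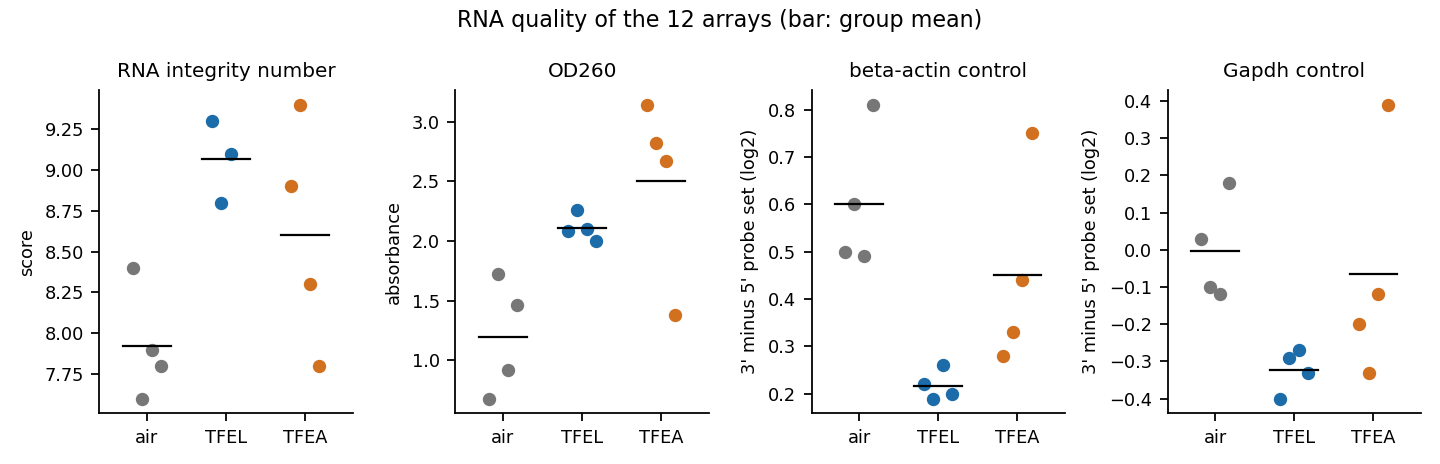
RNA quality of the 12 samples: RNA integrity number (score), OD260 (absorbance), and the 3' minus 5' difference of the beta-actin and Gapdh control probe sets (log2), for air controls (air), tetrafluoroethylene (TFEL) and tetrafluororethane (TFEA); each point is 1 array and the bar is the group mean. All TFEL points lie outside the range of the controls in the 4 measures, whereas TFEA replicate 4 lies within it for the RNA integrity number (7.8), OD260 (1.38) and the beta-actin difference (0.75) and above it for Gapdh (0.39).

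With tetrafluoroethylene, 964 of 13524 genes tested differed from the controls at an adjusted p under 0.05 (limma, Benjamini-Hochberg), 7.13% of all genes, and rises outnumbered falls. There were 764 genes that rose (5.65%) and 200 that fell (1.48%), and 2928 had an unadjusted p under 0.05. The changes were small: the median size among called genes was 0.37 on the log2 scale, 200 exceeded 0.5 and 6 exceeded 1. The largest were a rise of 1.32 for Nfix and a fall of 1.17 for Malat1, and the median over all genes was 0.02. The count rests on the design and on single arrays. The same values fitted on the 12 arrays alone gave 0 calls (2237 genes at unadjusted p under 0.05, smallest adjusted p = 0.068), the 8 arrays of the contrast alone gave 954 (623 higher and 331 lower, with 612 of the 964 calls kept), the arrays of the batch alone gave 48, the RNA integrity number as a covariate 39 and the beta-actin difference as a covariate 150. The fit with the RNA integrity number drops TFEL replicate 3, which has none, and so compares 3 TFEL arrays with 4 controls. Its count thus joins a lost array with the adjustment, here and below. Leaving out control replicate 3 gave 307 calls, control replicate 4 gave 572, TFEL replicate 2 gave 391 and TFEL replicate 3 gave 448. The split between rises and falls also depended on scaling: quantile normalization gave 660 rises and 984 falls, and the spread of each array as a covariate gave 895 and 1105. Of the 964 genes, 231 kept their call whichever of the 8 arrays was left out, 204 of them higher and 27 lower. Under both RNA quality covariates 33 kept their call, 31 higher and 2 lower, and these 33 were among the 231.

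The nuclear factor I genes Nfix and Nfic, which encode transcription factors that bind DNA as dimers and act in lung development, rose with tetrafluoroethylene. Nfix lay at 3.96, 4.24, 4.13 and 4.28 on the TFEL arrays and at 2.40, 3.17, 2.98 and 2.77 on the control arrays. Every TFEL array was above every control, and a rise of 1.32 ± 0.20 (SE) corresponds to 2.50-fold (limma adjusted p = 1.48e-06, n = 4 against 4). The 13 other control sets had means between 2.26 and 2.97, below every TFEL array too. Nfic lay at 2.88, 3.16, 3.10 and 3.01 against 1.80, 2.29, 2.00 and 1.82, again with no overlap, and rose by 1.06 ± 0.16 (SE), or 2.09-fold (limma adjusted p = 1.37e-06). The remaining family members, Nfia and Nfib, differed by 0.03 (95% confidence interval -0.20 to 0.26) and 0.19 (-0.18 to 0.56) and did not pass the test (adjusted p = 0.913 and 0.625). The rises of Nfix and Nfic kept their calls with either RNA quality covariate, at 1.16 and 0.89 with the RNA integrity number and at 0.99 and 0.80 with the beta-actin difference. Across the other 179 arrays, within groups, Nfix fell by 0.78 ± 0.16 (SE) and Nfic by 0.60 ± 0.12 per unit of the beta-actin difference (limma adjusted p = 0.000155 and 0.000166). Probe sets disagreed for both genes. Of 5 for Nfix, 3 gave 1.32, 1.19 and 1.01, and the other 2 gave 0.17 and 0.02 and did not pass the test. The 5 of Nfic gave 1.06, 0.41, 0.29, 0.14 and 0, of which 0.29, 0.14 and 0 did not pass the test.

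Nfix lies on chromosome 8 at 84704712 to 84801238, Nfic on chromosome 10 at 81396191 to 81431919, and Rsrp1, described below, on chromosome 4 at 134923625 to 134927370 (GRCm38.p6, RefSeq). Their promoters are shown because these 3 genes had the largest rises with tetrafluoroethylene; each runs from 250 bases before to 50 bases after a listed transcription start, with every CG in capitals. The start shown for Nfix is the first of 4 listed and lies inside the gene's span, as does the start of Nfic, and the Rsrp1 start is that of the gene. Sox18 and Plvap had no entry.
Nfix, chr8:84780033-84780332, minus strand: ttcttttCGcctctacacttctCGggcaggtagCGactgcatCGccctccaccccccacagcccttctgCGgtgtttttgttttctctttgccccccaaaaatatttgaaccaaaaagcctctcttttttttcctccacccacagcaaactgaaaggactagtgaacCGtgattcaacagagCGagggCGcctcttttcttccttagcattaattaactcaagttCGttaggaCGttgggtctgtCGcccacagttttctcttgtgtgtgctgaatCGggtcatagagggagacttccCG
Nfic, chr10:81427124-81427423, minus strand: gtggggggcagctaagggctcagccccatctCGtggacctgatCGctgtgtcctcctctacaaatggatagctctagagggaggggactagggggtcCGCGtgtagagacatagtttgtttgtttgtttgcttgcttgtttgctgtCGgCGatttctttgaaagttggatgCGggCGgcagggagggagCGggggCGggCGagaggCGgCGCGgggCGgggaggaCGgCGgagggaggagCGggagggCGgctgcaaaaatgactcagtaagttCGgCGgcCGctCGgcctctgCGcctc
Rsrp1, chr4:134923375-134923674, plus strand: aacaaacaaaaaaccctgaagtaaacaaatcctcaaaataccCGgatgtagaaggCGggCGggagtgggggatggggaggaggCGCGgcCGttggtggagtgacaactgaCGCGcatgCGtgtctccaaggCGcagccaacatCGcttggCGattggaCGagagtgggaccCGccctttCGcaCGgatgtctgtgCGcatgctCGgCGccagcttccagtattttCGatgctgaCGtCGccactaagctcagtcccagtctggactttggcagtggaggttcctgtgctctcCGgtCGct
The motif searched was CG, which reads the same on both strands. It occurred 13 times in the Nfix window, 24 times in that of Nfic and 24 times in that of Rsrp1. Of all 32851 windows listed by RefSeq, 94.6% held it, with a median count of 7, and over the genes tested that have an entry the median was 20. The counts of Nfic and Rsrp1 were above both medians, and that of Nfix lay between them.

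The list of nuclear factor I and lung transcription factors had a median of 0.33 with tetrafluoroethylene, against 0.02 over all genes. Beside 5.65% of all genes that rose, 6 of its 21 genes tested rose and none fell. Besides Nfix and Nfic these were Meis1, Nkx2-1, Gata6 and Tbx5, of which Meis1 (a homeobox factor) rose by 0.44 ± 0.13 (SE, limma adjusted p = 0.0239). Its arrays read 0.93, 1.05, 1.44 and 1.25 against 0.79, 0.87, 0.54 and 0.73, with no overlap. The Meis1 call was lost without control replicate 3 or 4 or without TFEL replicate 3 or 4, and against the 3 other air control sets (0.23, adjusted p = 0.106). The other probe sets of Meis1 gave 0.18 and -0.08, and the mean of its probe sets gave 0.18 (limma adjusted p = 0.114). Without single arrays the list held 3 to 8 calls, with 3 without control replicate 4. With either RNA quality covariate only Nfix and Nfic remained called, and the list's median was 0.27 with the RNA integrity number and 0.23 with the beta-actin difference.

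**Figure D2:**
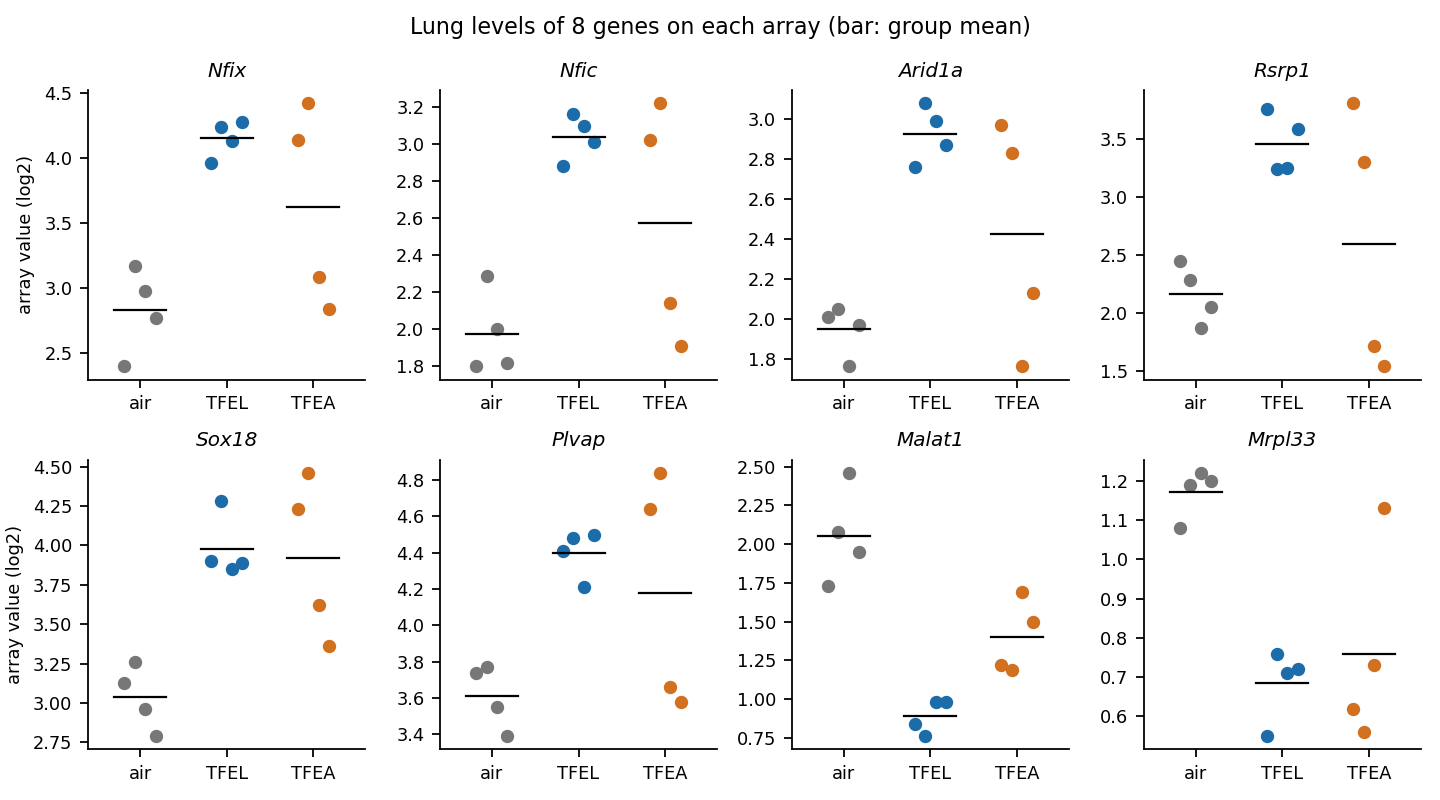
Array values (log2) of 8 genes in air controls (air), tetrafluoroethylene (TFEL) and tetrafluororethane (TFEA); each point is 1 array and the bar is the group mean. TFEL points stand clear of the controls in all 8 panels, while TFEA replicates 1 and 2 sit with TFEL and replicates 3 and 4 near the controls for Nfix, Nfic, Arid1a, Rsrp1 and Plvap.

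Some genes for chromatin regulators rose as well: 7 of the 20 tested passed the test with tetrafluoroethylene, all higher, beside 5.65% of all genes. The list's median was 0.15. Arid1a, the DNA-binding subunit of the BAF remodelling complex, lay at 2.76, 3.08, 2.99 and 2.87 against 2.01, 2.05, 1.76 and 1.97. No arrays overlapped, and the rise was 0.98 ± 0.14 (SE), or 1.97-fold (limma adjusted p = 1.37e-06). Kdm6b, a demethylase of histone H3 lysine, lay at 2.47, 2.59, 2.42 and 2.47 against 1.35, 1.84, 1.54 and 1.22, likewise without overlap. It rose by 1.00 ± 0.19 (SE, adjusted p = 0.000268), and its other probe sets gave 0.44 and 0.08. Med13l, a subunit of the Mediator kinase module, rose by 0.56 ± 0.12 (SE, adjusted p = 0.00148), and its other probe sets gave 0.13 and 0. The other 4 genes called were Med12, Kmt2d, Smarca4 and Chd4. Arid1a and Kdm6b kept their calls with both RNA quality covariates, at 0.81 and 0.88 with the RNA integrity number and at 0.74 and 0.64 with the beta-actin difference. In the whole list 2 genes remained called with the first covariate and 3 with the second, and leaving out TFEL replicate 2 left 4.

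Rsrp1, which encodes an arginine- and serine-rich nuclear protein, was the second-largest rise. Its TFEL arrays read 3.76, 3.24, 3.25 and 3.59 and the controls 2.45, 2.29, 1.87 and 2.05. The groups did not overlap, and the rise was 1.29 ± 0.27 (SE), or 2.45-fold (limma adjusted p = 0.000681). It was 1.04 with the RNA integrity number as a covariate (adjusted p = 0.117) and 0.68 with the beta-actin difference (adjusted p = 0.12), so the call was lost with either. Across the other 179 arrays Rsrp1 fell by 1.47 ± 0.19 (SE) per unit of the beta-actin difference (limma adjusted p = 2.32e-09). Its other 2 probe sets gave 0.33 and 0.14 and did not pass the test.

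Malat1, an abundant nuclear long non-coding RNA, moved the other way. It lay at 0.84, 0.76, 0.98 and 0.98 with TFEL and at 1.73, 2.08, 2.46 and 1.95 in the controls. All TFEL arrays were lower, by 1.17 ± 0.23 (SE) or 2.24-fold (limma adjusted p = 0.000359), and the call held with both covariates at -1.06 and -1.01. Of its 7 probe sets, 2 fell, by 1.17 and 0.98, while the other 5 lay between -0.39 and 0.05, and the mean of all probe sets gave -0.40 (adjusted p = 0.183). Neat1, the nuclear RNA that scaffolds paraspeckles, rose by 0.74 ± 0.24 (SE, adjusted p = 0.0442; named after its values were seen), and the call was lost without control replicate 2, 3 or 4 or TFEL replicate 2 or 3. Srsf5, a splicing factor, lay at 3.71, 4.03, 4.65 and 3.90 against 3.64, 3.00, 2.71 and 2.98, without overlap by a small margin. It rose by 0.99 ± 0.25 (SE, adjusted p = 0.00683), a call lost without control replicate 3 or TFEL replicate 3. Over the list of nuclear RNA and splicing genes 4 of 34 rose (Rsrp1, Srsf5, Neat1, Srrm1) and 4 fell (Malat1, Prpf4b, Akap9, Golgb1). Over all genes 5.65% rose and 1.48% fell. The list's median was 0.06, so it had no common direction. Leaving out control replicate 3 gave 4 calls in place of 8, and TFEL replicate 2 or 3 gave 5.

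Some endothelial genes rose with tetrafluoroethylene: 9 of the 34 markers tested passed the test, all higher, beside 5.65% of all genes. The list's median was 0.24. Sox18, a transcription factor of the endothelium, lay at 3.90, 4.28, 3.85 and 3.89 with TFEL and at 3.13, 3.26, 2.96 and 2.79 in the controls. No arrays overlapped, and the rise was 0.95 ± 0.20 (SE), or 1.93-fold (limma adjusted p = 0.000789). Plvap, which forms the diaphragms of endothelial pores and caveolae, lay at 4.41, 4.48, 4.21 and 4.50 against 3.74, 3.77, 3.55 and 3.39, again without overlap. It rose by 0.79 ± 0.20 (SE), or 1.73-fold (adjusted p = 0.00516). Cd93, a glycoprotein of the endothelial surface, lay at 4.75, 4.76, 5.00 and 4.67 against 4.17, 4.15, 3.52 and 3.85. It rose by 0.87 ± 0.17 (SE, adjusted p = 0.000255), and its 5 probe sets gave 0.11 to 0.87. The other 6 called markers were Erg, Eng, Ace, Pecam1, Sox17 and Flt1. The standard markers Cdh5, Kdr, Tek and Vwf differed by 0.24, 0.14, 0.12 and 0.19 and did not pass the test.

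The endothelial calls changed with the control sets used and with an RNA quality measure as a covariate. The part of RNA quality itself was not tested. The mean of Plvap in ACO1 was 3.61, below the 3.74 to 4.16 of the 13 other control sets, and against the 3 other air control sets (chosen after seeing the data) its rise was 0.49 (adjusted p = 0.0176). That of Sox18 was 0.53 (adjusted p = 0.0107). With the RNA integrity number as a covariate Plvap stood at 0.65 (adjusted p = 0.173) and Sox18 at 0.73 (adjusted p = 0.1), and with the beta-actin difference at 0.48 (adjusted p = 0.214) and 0.58 (adjusted p = 0.0947). Cd93 kept its call with both, at 0.79 and 0.84, and was the only endothelial marker to do so. In place of 9 calls, leaving out control replicate 3 gave 3, control replicate 4 gave 4, TFEL replicate 2 gave 5 and TFEL replicate 3 gave 4. The mean level over the 34 markers was 3.22, 3.35, 3.33 and 3.26 on the TFEL arrays and 3.14, 3.11, 2.82 and 2.93 on the controls, which did not overlap.

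Some markers of endothelial subtypes were called as well, beside 5.65% of all genes that rose and 1.48% that fell. Among 11 markers of aerocytes and capillary subtypes, Tbx2 (a T-box transcription factor) and Apln (a peptide ligand of tip and capillary cells) rose, by 0.63 ± 0.18 and 0.50 ± 0.15 (SE, limma adjusted p = 0.0176 and 0.0218), and none fell. Without TFEL replicate 2 neither was called, and without TFEL replicate 1 there were 3 calls; 1 call was left without TFEL replicate 3 or 4 or control replicate 1, 3 or 4. Among 12 markers of large vessels and lymphatics 3 rose and 1, Mmrn1, fell, a call lost whichever of the 8 arrays was left out. Without control replicate 3 or TFEL replicate 2 the list had 1 call, and without control replicate 4 or TFEL replicate 1, 3 or 4 it had 2. Nr2f2, a nuclear receptor of venous and lymphatic identity, lay at 2.05, 2.16, 2.25 and 2.14 against 1.63, 1.85, 1.32 and 1.38. It rose without overlap by 0.61 ± 0.13 (SE, adjusted p = 0.000707), and this call survived leaving out any array. With the RNA integrity number as a covariate Nr2f2 stood at 0.58 and was not called (limma adjusted p = 0.0508). With the beta-actin difference it stood at 0.46 (adjusted p = 0.0437). Its 6 probe sets gave 0.04 to 0.61. Flt4, the VEGF receptor of lymphatic endothelium, rose by 0.51 ± 0.13 (adjusted p = 0.00651), a call lost without control replicate 3 or TFEL replicate 2 and against the 3 other air control sets (0.25, adjusted p = 0.0739). Its second probe set gave 0.09. Dll4, a Notch ligand, rose by 0.45 ± 0.15 (adjusted p = 0.0458) and lost its call without any of 6 arrays, all but control replicates 1 and 2. Its second probe set gave 0.13, and with the mean of its probe sets it was not called. With either RNA quality covariate the aerocyte and capillary list had no call. The large vessel and lymphatic list had 1 with the beta-actin difference and none with the RNA integrity number.

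Some ligands, receptors and inhibitors of the vascular signalling pathways also rose. Of 31 genes of VEGF, Notch, TGF-beta and BMP signalling, 10 rose with tetrafluoroethylene and none fell, beside 5.65% of all genes that rose. The list's median was 0.24. Among ligands, Bmp4 rose by 0.68 ± 0.18 and Vegfa by 0.60 ± 0.15 (SE, limma adjusted p = 0.00974 and 0.00687), and both calls were lost without control replicate 3 or TFEL replicate 3. The Bmp4 arrays overlapped, at 2.21, 2.54, 3.02 and 2.15 against 2.32, 1.62, 1.37 and 1.89. Tgfb1 and Dll4 were the other ligands called, and Eng, Flt1 and Nrp2 the receptors. Smad6, an inhibitor of BMP signalling inside the cell, lay at 3.90, 4.01, 3.49 and 3.77 against 2.77, 3.09, 2.71 and 2.77. It rose without overlap by 0.96 ± 0.23 (SE), or 1.94-fold (adjusted p = 0.0041). Smad7, a related inhibitor, and Hes1, a Notch target, completed the 10. With the RNA integrity number as a covariate none of the 10 was called, with the beta-actin difference 1 was, and leaving out control replicate 3 left 2. Without control replicate 4 there were 6, and without TFEL replicate 2 or 3 there were 4.

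Of 28 fibroblast and matrix genes 3 rose with tetrafluoroethylene and none fell, with a median of 0.18, beside 5.65% of all genes that rose. Col4a2, a collagen of basement membranes, lay at 4.36, 4.55, 4.44 and 4.25 against 3.51, 3.71, 3.47 and 3.69 and rose without overlap by 0.81 ± 0.18 (SE, limma adjusted p = 0.0018). Col1a1, the fibrillar collagen of fibroblasts, rose by 0.74 ± 0.18 (adjusted p = 0.0041), and its second probe set gave 0.16. Hspg2, the proteoglycan perlecan, rose by 0.46 ± 0.13 (adjusted p = 0.0126), a call lost without TFEL replicate 2. Ltbp4, which binds latent TGF-beta and helps to assemble elastic fibres, lay at 3.40, 3.76, 3.52 and 3.42 against 2.52, 2.60, 2.28 and 2.48. It rose without overlap by 1.05 ± 0.21 (SE), or 2.08-fold (adjusted p = 0.000545). Neither Ltbp4 nor any of the 3 list members was called with either RNA quality covariate, and Ltbp4 stood at 0.56 with the beta-actin difference (adjusted p = 0.106) and 0.72 with the RNA integrity number (adjusted p = 0.147). Ttc28, a large tetratricopeptide-repeat protein, was the tenth-largest rise, at 1.93, 2.47, 2.20 and 2.15 against 1.10, 1.49, 1.33 and 1.13, a difference of 0.93 ± 0.16 (adjusted p = 3.14e-05).

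The 10 largest falls with tetrafluoroethylene that the naming rule gives were Malat1 and 9 genes of small proteins, several of them of ribosomes, the spliceosome or mitochondria. Rpl22l1, a ribosomal protein paralogue, lay at 2.40, 2.79, 2.78 and 2.67 against 3.23, 3.40, 3.49 and 3.18. It fell without overlap by 0.66 (SE 0.17, limma adjusted p = 0.00625). Ndufa5, a subunit of respiratory complex I, fell by 0.65 (SE 0.16, adjusted p = 0.00438) and Slirp, a mitochondrial RNA-binding protein, by 0.64 (SE 0.15, adjusted p = 0.00258), both with all TFEL arrays below all controls. Rbis, a ribosome biogenesis factor, and Snrpe, a core spliceosome protein, each fell by 0.66 (adjusted p = 0.0259 and 0.0135). Lgals1 (galectin-1), Cycs (cytochrome c), Smim4 (a small mitochondrial membrane protein) and Sod1 (cytosolic superoxide dismutase) fell by 0.64, 0.63, 0.62 and 0.60 (adjusted p = 0.0109, 0.0241, 0.0338 and 0.041). Of these 9 genes, Rpl22l1, Ndufa5 and Slirp kept their calls whichever array was left out. Without control replicate 3 the other 6 lost theirs, and without TFEL replicate 2 Cycs, Smim4 and Sod1 did. With either RNA quality covariate none of the 9 was called: Slirp stood at -0.47 with the beta-actin difference (adjusted p = 0.0947) and -0.50 with the RNA integrity number (adjusted p = 0.17), and Rbis at -0.32 and -0.44 (adjusted p = 0.471 and 0.46). With the mean of its probe sets Rbis was at -0.24 (adjusted p = 0.33), and against the 3 other air control sets Smim4 was at -0.39 (adjusted p = 0.0735).

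Over the list of ribosomal proteins 3 of 16 fell with tetrafluoroethylene, beside 1.48% of all genes. None rose, and the median was -0.29. Rps24 lay at 4.92, 4.90, 5.17 and 5.11 against 5.53, 5.54, 5.51 and 5.58, and fell without overlap by 0.51 (SE 0.13, limma adjusted p = 0.0084). Rpl35 and Rps19 fell by 0.50 and 0.43 (adjusted p = 0.0454 and 0.0375), and Rps19 was at -0.28 against the 3 other air control sets (adjusted p = 0.0609). All 16 had a negative difference, and the mean of the list was 4.41, 4.38, 4.49 and 4.58 on the TFEL arrays against 4.71, 4.80, 4.76 and 4.81 on the controls. Of 25 genes of the respiratory chain 6 fell, beside the same 1.48% of all genes, and none rose, with a median of -0.13. Uqcrb, a subunit of complex III, fell by 0.55 (SE 0.14, adjusted p = 0.00588) and Ndufa2, of complex I, by 0.54 (SE 0.17, adjusted p = 0.0314). The other 4 were Cycs, Cox7a2, Ndufa4 and Ndufa1. With either RNA quality covariate neither list had a call, and without TFEL replicate 2 the ribosomal list had 0 calls and the respiratory list 1. Without control replicate 2, 3 or 4 or TFEL replicate 1 the ribosomal list had 1 call each, and the respiratory list 3, 1, 1 and 1.

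Genes of oxidant defence and of glutathione conjugation were called at a share near that of all genes. Of 34 genes of the NRF2 and glutathione list 2 rose and 1 fell, with a median of -0.04, beside 7.13% called over all genes. Me1, malic enzyme, rose by 0.48 ± 0.13 (SE, limma adjusted p = 0.0142), and Ggt5, a gamma-glutamyl transferase, by 0.21 ± 0.06 (adjusted p = 0.0152). Gstm5, a glutathione transferase, fell by 0.37 (SE 0.12, adjusted p = 0.0416). Me1 averaged 1.50 in ACO1, below the 1.65 to 1.95 of the 13 other control sets, and against the 3 other air control sets its difference was 0.15 (limma adjusted p = 0.359), against all 4 it was 0.23 (adjusted p = 0.112) and with the mean of its probe sets 0.31 (adjusted p = 0.0691). The Me1 and Ggt5 calls were lost without control replicate 3 or TFEL replicate 2, and that of Gstm5 without any of 6 arrays, all but control replicate 1 and TFEL replicate 4. With either RNA quality covariate the list had no call. The standard NRF2 targets did not pass the test: Nqo1 (quinone reductase) differed by -0.24 (95% confidence interval -0.47 to -0.01, adjusted p = 0.204), Gclc by 0.10 (-0.26 to 0.46), Hmox1 by -0.16 (-0.46 to 0.13) and Txnrd1 by 0.15 (-0.11 to 0.42). None of 7 mercapturate and cysteine conjugate enzymes was called or had an unadjusted p under 0.05, and Kyat1, a cysteine conjugate beta-lyase, differed by 0.05 (-0.07 to 0.18). None of 23 xenobiotic-metabolising enzymes and none of 26 PPAR targets and fatty acid oxidation genes was called, with medians of 0.03 and -0.01; the unadjusted p was under 0.05 for 1 gene of the first list and 3 of the second. Cyp2e1, the cytochrome P450 of small volatile substrates, differed by 0.13 (-0.75 to 1.00) and Cyp2f2, of club cells, by -0.12 (-0.32 to 0.08).

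The lists of other cell types held 0 to 2 calls each, to be read against the 7.13% called over all genes. With tetrafluoroethylene Sftpb, a surfactant protein, rose by 0.36 ± 0.12 (limma adjusted p = 0.0448) and was the only 1 of 18 type 2 cell markers called. Spock2, a proteoglycan of type 1 cells, rose by 0.59 ± 0.19 (adjusted p = 0.0374) and with Vegfa made 2 of 18 type 1 cell markers. Mylk, a kinase of smooth muscle, rose by 0.49 ± 0.14 (adjusted p = 0.0202), 1 of 18. Cd3e of T cells rose by 0.23 ± 0.08 (adjusted p = 0.0486), 1 of 18, and Cd74, the invariant chain of antigen presentation, by 0.39 ± 0.12 (adjusted p = 0.0316), 1 of 15. Each of these 5 calls was lost without control replicate 3, TFEL replicate 2 or TFEL replicate 3. None was called among 17 club cell markers, 17 of ciliated cells, 10 of goblet cells, 23 of macrophages, 15 of neutrophils, 14 of B cells, 9 of mesothelium, 12 of adipose tissue, 18 of cardiac muscle, 12 of skeletal muscle and 6 of red cells. Over these 11 lists, 6 of 149 genes had an unadjusted p under 0.05. Nor was any of 22 cell cycle, 19 interferon, 16 heat shock or 15 glucocorticoid response genes called, with 2, 2, 1 and 0 at an unadjusted p under 0.05. Of 21 sterol and fatty acid synthesis genes the 1 called was Me1, and of 19 hypoxia genes Vegfa. Of 17 p53 targets Zmat3, an RNA-binding protein, and Bbc3, which encodes PUMA, rose by 0.45 ± 0.10 and 0.33 ± 0.09 (adjusted p = 0.00123 and 0.00884), the latter lost without control replicate 3 or TFEL replicate 2. Jun rose by 0.71 ± 0.19 (adjusted p = 0.0103), the only 1 of 24 immediate early genes called, and lost its call without control replicate 3. Bhlhe40, of the clock list, rose by 0.48 ± 0.14 (adjusted p = 0.0195) and Psat1, of the ATF4 list, fell by 0.30 (SE 0.10, adjusted p = 0.0438), and both calls were lost without control replicate 3 or TFEL replicate 3.

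**Figure D3:**
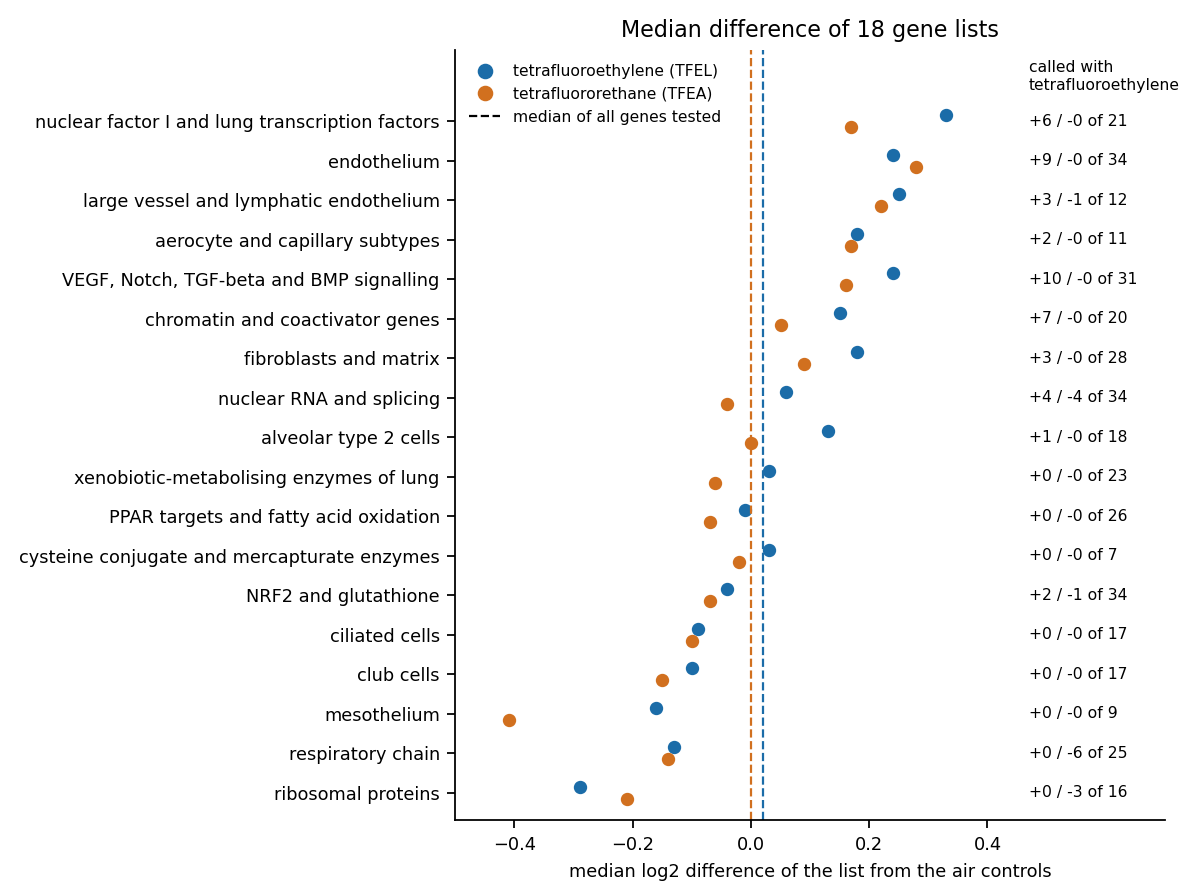
Median log2 difference from the air controls of 18 gene lists for tetrafluoroethylene (TFEL) and tetrafluororethane (TFEA), with dashed lines at the median of all 13524 genes (0.02 and 0.00) and, at the right, the members called higher and lower with TFEL of those tested. Endothelial, signalling and transcription factor lists lie at the right and ribosomal proteins (-0.29 with TFEL) at the left; both gases share the same 4 control arrays.

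With tetrafluororethane, 13 of 13524 genes passed the test against the same controls, 0.0961% of all genes. There were 8 that rose (0.0592%) and 5 that fell (0.0370%), and 1627 had an unadjusted p under 0.05. The genes that rose were Sox18, Sema7a, Grasp, Tox2, Camta2, Fam219a, Gata3 and Usp49, and those that fell Mrpl33, Ndufaf2, Marchf4, Zfp938 and D730045A05Rik (the last outside the naming rule and named after its values were seen). The count rests on single arrays. It was 825 without TFEA replicate 4, 142 without TFEA replicate 3 and 0 without TFEA replicate 1 or 2 (1628 and 577 genes at unadjusted p under 0.05). Without control replicates 1, 2, 3 and 4 in turn it was 23, 3, 0 (1360 at unadjusted p under 0.05) and 4. The 12 arrays alone, the 8 arrays alone, the batch alone and either RNA quality covariate each gave 0 calls (1114, 693, 861, 1192 with the beta-actin difference and 1106 with the RNA integrity number at unadjusted p under 0.05), whereas quantile normalization gave 624 (248 rises and 376 falls) and the array spread as a covariate 622 (265 and 357). The 3 other air control sets gave 1133.

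Sox18 was the largest rise called with tetrafluororethane. It lay at 4.23, 4.46, 3.62 and 3.36 on the TFEA arrays against 3.13, 3.26, 2.96 and 2.79 on the controls. Every TFEA array was above every control, and replicates 1 and 2 were the highest of the 4. The rise was 0.88 ± 0.20 (SE), or 1.84-fold (limma adjusted p = 0.0301), and against the 3 other air control sets it was 0.47 (adjusted p = 0.0477). Sema7a, a membrane-anchored semaphorin, lay at 2.05, 2.66, 1.47 and 1.38 against 1.17, 1.12, 1.19 and 0.94 and rose by 0.78 ± 0.18 (adjusted p = 0.0331). Its arrays did not overlap, with replicate 2 far above the rest. Grasp, a scaffold protein of membrane receptors, rose by 0.66 ± 0.14 and Camta2, a calmodulin-binding transcription activator, by 0.48 ± 0.11 (both adjusted p = 0.0301), also without overlap. Tox2, an HMG-box factor, rose by 0.64 ± 0.15 (adjusted p = 0.0301), with replicate 3 at the level of the highest control, 2.52. Gata3, a zinc finger transcription factor, rose by 0.34 ± 0.08 (adjusted p = 0.0404) from levels around -0.41. All 6 calls were lost without TFEA replicate 1 or 2 and without control replicate 3. With the mean of all probe sets Grasp and Tox2 were not called. The other probe sets of Grasp gave 0.35 and 0.16, and that of Tox2 gave -0.03.

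Among the falls with tetrafluororethane, Mrpl33, a protein of the mitochondrial ribosome, lay at 0.62, 0.56, 0.73 and 1.13 against 1.08, 1.19, 1.22 and 1.20. Replicates 1 to 3 were below every control and replicate 4 was among them, and the fall was -0.41 ± 0.09 (SE, limma adjusted p = 0.0301). Ndufaf2, an assembly factor of complex I, showed the same layout at 0.31, 0.38, 0.23 and 0.65 against 0.68, 0.76, 1.08 and 0.60, and fell by 0.39 (SE 0.09, adjusted p = 0.0494). The second probe set of Mrpl33 gave 0.08, and with the mean of its probe sets Mrpl33 was not called. Zfp938, a zinc finger gene, fell by 0.28 (SE 0.06, adjusted p = 0.0301) at levels below the median of all values, -0.386. Marchf4, a membrane ubiquitin ligase gene, was called lower at a difference of -0.31 that turned on control replicate 3, which read 0.35 where the other controls read -0.56, -0.53 and -0.48. Without that array Marchf4 was not called. Genes of the next smallest p, such as Coro2b and Card10 among higher values (0.62 and 0.67) and Tshb, Tctex1d2 and Hddc2 among lower (-0.34, -0.49 and -0.45), did not pass the test (adjusted p = 0.0665 to 0.0691).

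**Figure D4:**
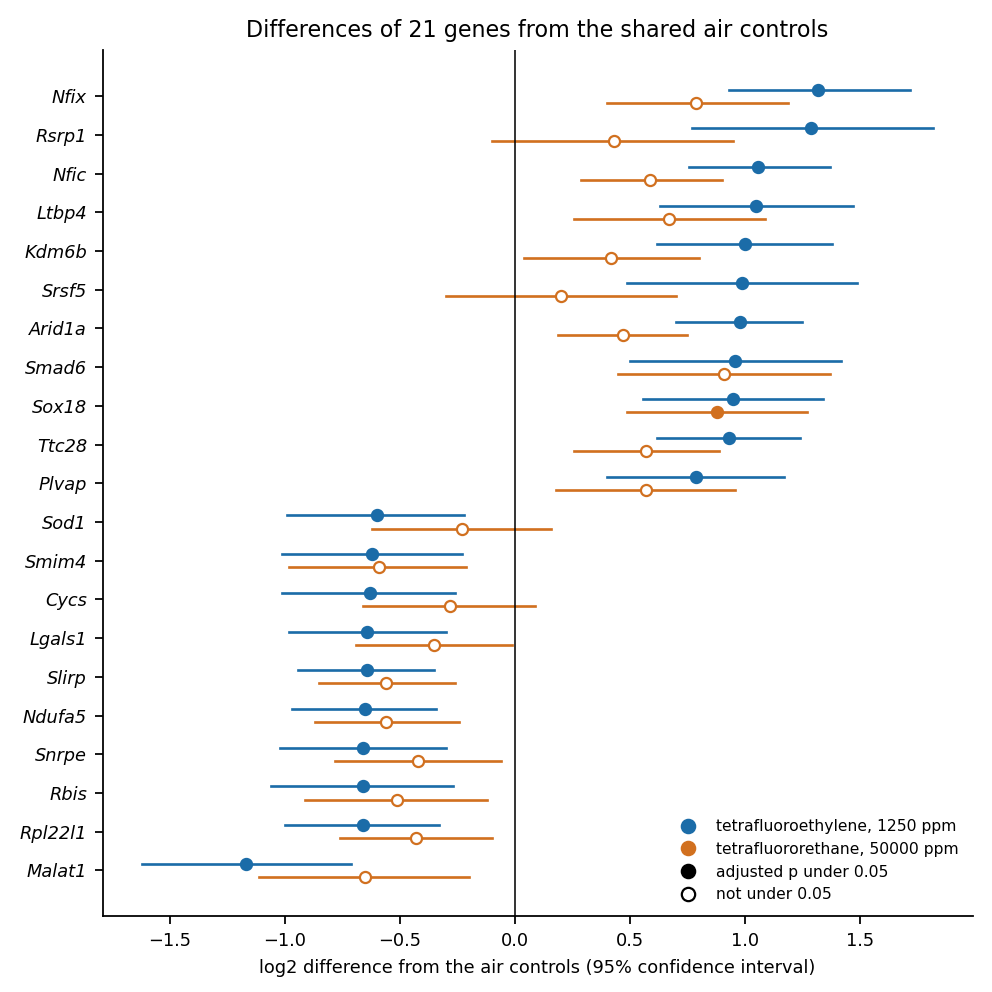
Log2 difference from the air controls with its 95% confidence interval for 21 genes, with tetrafluoroethylene (1250 ppm) and tetrafluororethane (50000 ppm); filled points passed the test at an adjusted p under 0.05 and open points did not. All 21 points of tetrafluoroethylene are filled, and of tetrafluororethane only Sox18 is.

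Set side by side, the saturated gas and the fluorinated alkene were measured at different concentrations, so no test between them was made. The difference of Nfix was 1.32 (95% confidence interval 0.93 to 1.72) with tetrafluoroethylene and 0.79 (0.40 to 1.19) with tetrafluororethane, where it did not pass the test (limma adjusted p = 0.0691). Both intervals rest on the spread pooled over the series. The SD of Nfix between the 4 animals was 0.77 with tetrafluororethane and 0.15 with tetrafluoroethylene, so the pooled interval understates the spread among the TFEA animals. On the TFEA arrays Nfix read 4.14, 4.42, 3.09 and 2.84, so replicates 1 and 2 stood with the TFEL arrays and replicates 3 and 4 with the controls. Nfic read 3.02, 3.22, 2.14 and 1.91, Arid1a 2.97, 2.83, 1.76 and 2.13, Plvap 4.64, 4.84, 3.66 and 3.58, and Rsrp1 3.81, 3.30, 1.72 and 1.54. The same pair of animals was high in each. The differences with tetrafluororethane were 0.59 for Nfic, 0.47 for Arid1a, 0.57 for Plvap and 0.43 for Rsrp1 (adjusted p = 0.0808, 0.122, 0.195 and 0.528), with SDs of 0.64, 0.57, 0.65 and 1.13 between the 4 animals against 0.12, 0.14, 0.13 and 0.26 with tetrafluoroethylene. The high pair was also the pair with RNA integrity numbers of 8.9 and 9.4, against 8.3 and 7.8 in the low pair.

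The ribosomal and respiratory genes divided the TFEA animals differently. Rps24 read 5.03, 4.95 and 5.02 in replicates 1 to 3 and 5.69 in replicate 4, against 5.51 to 5.58 in the controls. Rpl22l1 read 2.73, 2.78, 2.72 and 3.37, and Ndufa5 1.76, 1.54, 1.49 and 2.51. Replicate 3 was thus low with replicates 1 and 2, and replicate 4 alone was at control level. Over the 16 ribosomal proteins the array means were 4.38, 4.50, 4.45 and 4.86, against 4.71 to 4.81 in the controls, and the median difference was -0.21 with no member called (6 of 16 at an unadjusted p under 0.05). Malat1 read 1.22, 1.19, 1.69 and 1.50, below all controls, at a difference of -0.65 that did not pass the test (limma adjusted p = 0.199).

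Of all lists, 1 member was called with tetrafluororethane, Sox18 of the endothelial list. The median of the 34 endothelial markers was 0.28 with tetrafluororethane beside 0.24 with tetrafluoroethylene, that of VEGF, Notch, TGF-beta and BMP signalling 0.16 beside 0.24, and that of the transcription factors 0.17 beside 0.33. For the endothelial list the TFEA array means were 3.56, 3.39, 2.88 and 3.21, so replicates 1, 2 and 4 lay above every control and replicate 3 among them. The mesothelial list had the lowest median with tetrafluororethane, -0.41 beside -0.16, with none of its 9 members called (2 at an unadjusted p under 0.05). Upk3b and Msln, its defining markers, differed by -0.60 (95% confidence interval -1.34 to 0.13) and -0.52 (-1.07 to 0.04). Of the NRF2 and glutathione genes 0 of 34 were called with tetrafluororethane (5 at an unadjusted p under 0.05), with Gstm5 at -0.34 (-0.58 to -0.10) and Hmox1 at -0.28 (-0.57 to 0.01).

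The leading genes were also set beside the 32 other exposed groups of the series, each against its own controls, as a description. Nfix differed by -0.39 to 0.42 in those groups, so both 1.32 and 0.79 lay above all of them. For Nfic (-0.44 to 0.49), Arid1a (-0.22 to 0.31) and Sox18 (-0.53 to 0.65) both gases were likewise above the range. For Plvap (-0.56 to 0.55) tetrafluororethane at 0.57 stood at its edge, and for Rsrp1 (-0.38 to 0.85) it lay inside at 0.43. These places hold for differences from ACO1. Against the 3 other air control sets Sox18 differed by 0.53 with tetrafluoroethylene and 0.47 with tetrafluororethane, inside its range. Plvap differed by 0.49 and 0.27, also inside, and Nfix by 1.47 and 0.94, still above its range. Malat1 ranged from -1.19 to 0.43, so 1 other group had a larger fall than that of tetrafluoroethylene. Mrpl33 ranged from -0.19 to 0.29, above the -0.49 and -0.41 of these gases.

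Many of the genes called with tetrafluoroethylene also moved with the beta-actin difference in other mice, and few with the RNA integrity number. Over the other 179 arrays, within groups, 3180 of 13524 genes (23.5%) moved with the beta-actin difference at an adjusted p under 0.05 (limma). Of these 3180 genes 1672 had a negative slope and 1508 a positive. Of the 764 genes that rose with tetrafluoroethylene 382 had a negative slope on it at that threshold and 3 a positive, and of the 200 that fell 65 had a positive slope and 1 a negative. With the RNA integrity number, over 148 other arrays that have one, 180 genes (1.33%) moved, 171 with a negative slope and 9 with a positive. Of the 764 risen genes 0 had a negative and 4 a positive slope, and of the 200 fallen genes 0 had a positive and 3 a negative. The 33 genes that kept their call under both covariates included, besides Nfix, Nfic, Arid1a, Kdm6b, Ttc28, Cd93 and Malat1, Polr2a (the largest subunit of RNA polymerase II, 0.73), Pabpc1 (a poly(A)-binding protein, 0.76), Zfhx3 (a homeodomain factor, 0.83) and Taok3 (a kinase, 0.76), the last 4 named after their values were seen.

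The genes called with tetrafluoroethylene differed in length. The median span from start to end in the genome was 31.7 kb for the 764 that rose, 12.4 kb for the 200 that fell and 22.2 kb over the genes tested with a RefSeq position. The middle ranges overlapped, from 14.5 to 82.9 kb, from 5.53 to 40.2 kb and from 9.22 to 53 kb. A comparison of promoter composition between these sets is void, since a promoter was listed for 79.7% of the genes that rose, just under the minimum set for such a comparison.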

How the data were processed

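Minced lung was kept in RNAlater, and Trizol extracts were cleaned on RNeasy and put on Affymetrix arrays, per the labels' protocols. The authors deposited processed log values, taken here as log2. Base, normalization and software are not given in the sources used here. Each of these 12 arrays has a mean of -0.000256 and an SD of 1.11 to 1.33. Precision rests on 4 animals a group.

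Of 45101 probe sets 34958 had 1 gene symbol, 932 several and 9211 none, and 34754 were matched to RefSeq names (GRCm38.p6). Each of 18194 genes was read from its probe set of the highest mean, and 13524 with at least 3 arrays above the median of all values were tested. A model of 48 group means over all arrays of the series was fitted with limma 3.58.1 in R 4.3.3, checked on simulated data, and genes were called at a Benjamini-Hochberg adjusted p under 0.05. The spread is thus shared over the series. A difference is exposed minus ACO1. Both gases share ACO1, so no overlap between them is a result.

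Genes were named by rule: the 10 largest rises and falls called for each gas, filled up by smallest p where fewer were called, up to 3 called members of a list, and Nfix, Sox18, Plvap and Rsrp1. Clone and predicted names were left out. Other list members given with values were chosen after their values were seen. Members, lists and rules were chosen with earlier results of these data known. Replicates are numbered in accession order. Alternatives covered normalization, filter, probe sets, arrays and controls in the fit, covariates for RNA quality, and single arrays left out. The RNA integrity number covariate drops arrays without one, TFEL replicate 3 among them.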

Additional observations from a re-analysis of the deposited data

Results flagged for a closer look

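The highest or lowest of the 4 arrays of a group stood far from the other 3 in 15 of 213 gene and group pairs, by Dixon's criterion (a gap above 0.829 of the range); chance alone gives about 1 in 20. On TFEA replicate 4, Ndufa2 read 3.45 where the others read 2.74 to 2.79, Rpl22l1 3.37 (others 2.72 to 2.78), Rps24 5.69 (4.95 to 5.03) and Uqcrb 5.46 (4.69 to 4.77), all higher. TFEA replicate 1 read 0.23 for Usp49, above -0.07 to -0.03.

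On TFEL replicate 2 Flt4 read 1.80 (others 1.56 to 1.58) and Sox18 4.28 (3.85 to 3.90), on replicate 1 Marchf4 read -0.58 (-0.62 each), and on replicate 4 Tshb read -0.37 (-0.66 to -0.64). Among the controls replicate 3 read 0.37 for Fam178b (others -0.64 to -0.47), 0.35 for Marchf4 (-0.56 to -0.48), 0.93 for Flt4 (1.17 to 1.19) and 0.52 for Ggt5 (0.67 to 0.69). Control replicate 2 read 3.59 for Jun (3.13 to 3.16) and 3.09 for Smad6 (2.71 to 2.77).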

How the results depend on the processing

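Against 964 calls for tetrafluoroethylene, quantile normalization gave 1644, the 12 arrays alone 0, the batch alone 48, 4 air control sets 2448, 3 control sets of the batch 1998, the beta-actin covariate 150 and the RNA integrity number covariate 39. The 3 other air control sets gave 2405 and the array SD covariate 2000, both chosen after seeing the data. Leaving out 1 array gave 307 to 1003. Against 13 calls for tetrafluororethane the same settings gave 624, 0, 0, 880, 591, 0, 0, 1133 and 622, its 8 arrays alone 0, and leaving out 1 array 0 to 825. Unfiltered genes, the stricter filter and mean probe sets stayed within 1.5 times in the number of calls. The genes called changed more: with mean probe sets 732 of the 925 measured calls of tetrafluoroethylene and 8 of the 13 of tetrafluororethane were kept. Where only the filter or the other groups in the fit change, the difference stays the same and its sign cannot change. All 13 genes of tetrafluororethane kept their sign wherever measured, and the fewest of the 964 to keep theirs was 960 of 961 under quantile normalization, 923 of 925 with mean probe sets, 962 with 3 other air control sets and 963 without control replicate 3. Causes of these shifts were not tested. No paired analysis was possible because replicate numbers only follow accession order and the labels number the animals differently in each group. Array number limits precision: the median SE was 0.10, and the smallest called difference was 0.14 for tetrafluoroethylene and 0.20 for tetrafluororethane.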
